A study of Mus musculus with 6 samples.

Results

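The genes of retinoic acid synthesis and reception were examined in the lungs of mice with and without active human SRY. The set was fixed by name as Aldh1a1, Aldh1a2, Aldh1a3, Rara, Rarb, Rarg, Crabp1, Crabp2 and Stra6, and every array probe that carried 1 of these symbols was taken. This gave 9 of the 18138 gene symbols of the array, read by 14 of its 25697 probes.

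Total RNA was taken at postnatal day 6 from the lungs of male mice of strain FVB (FVB/N in the methods of the study), and each mouse gave 1 Illumina BeadChip, with 3 hSRY-OFF and 3 hSRY-ON mice. All hSRY-ON mice carried a single-copy transgene, placed at a chosen locus. In it a CAG promoter (active in most cell types) drives FLAG-tagged human SRY and EGFP once Cre recombinase has removed a blocking segment. That segment holds the red fluorescent protein gene DsRed2, which the same promoter drives until then. Recombination took place in the early embryo through Cre that the egg of a Ddx4-Cre mother had stored, and the hSRY-ON mice chosen for the arrays did not themselves inherit the Cre transgene. The name hSRY-OFF stands for the transgene left unrecombined, although the study also speaks of its comparison animals as controls. Both groups were male and so had their own mouse Sry gene, and a single transgene insertion was studied.

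Retinoic acid is made inside cells from vitamin A. Retinol, taken up through receptors such as Stra6, is oxidised to retinal and then, by the retinaldehyde dehydrogenases Aldh1a1, Aldh1a2 and Aldh1a3, to retinoic acid, which Crabp1 and Crabp2 bind in the cytoplasm and which acts in the nucleus through Rara, Rarb and Rarg paired with retinoid X receptors. In lung the pathway is known for its part in bud formation in the embryo and in the forming of alveolar septa after birth.

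A probe was called detected on an array where its detection p-value (the share of negative control beads that were brighter) was under 0.05, and it was tested where it was detected on at least 3 of the 6 arrays. Between 13191 and 14134 probes were detected per array. Log2 values correlated across probes at 0.991 to 0.993 within hSRY-OFF, at 0.972 to 0.980 within hSRY-ON, and at 0.935 to 0.959 between the groups. All 7 genes of a lung marker list (Sftpa1, Sftpb, Sftpc, Sftpd, Scgb1a1, Ager and Nkx2-1) passed the filter. The probes of this array were designed for mouse genes, so the human transgene was not measured. With 6 arrays the number of animals limits every value below, and in whole lung fewer cells of a type and less RNA per cell cannot be told apart.

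Across the array 26.9% of the 13841 tested probes passed an adjusted p of 0.05 (limma, Benjamini-Hochberg), 13.6% with higher and 13.3% with lower values in hSRY-ON. For 46.6% of them the 3 values of one group lay wholly above the 3 of the other. Of the 14 probes of the retinoic acid genes, 10 were tested, for 6 genes, and 4 passed the test, which is 40.0%. Among the tested probes whose mean log2 value lay in the range of these 10, from 5.43 to 8.84, 28.7% passed. The passing probes were for Aldh1a1, Aldh1a2 and Rarb, which rose, and for Crabp1, which fell. Crabp1 met the detection filter through the hSRY-OFF arrays, where it was high. The groups did not overlap for 7 of the 10. Leaving out single arrays left 1 to 4 of the calls, with 1 left when hSRY-OFF replicate 2 was out and 2 when hSRY-OFF replicate 1 or 3 was. With median scaling in place of quantile normalization 5 passed, 2 higher and 3 lower. The median change of the 10 probes was -0.05 on the log2 scale, against -0.03 over all tested probes. The probes for Aldh1a3, Crabp2 and Stra6, and 1 of 3 for Rarb, were detected on none of the 6 arrays.

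**Figure D1:**
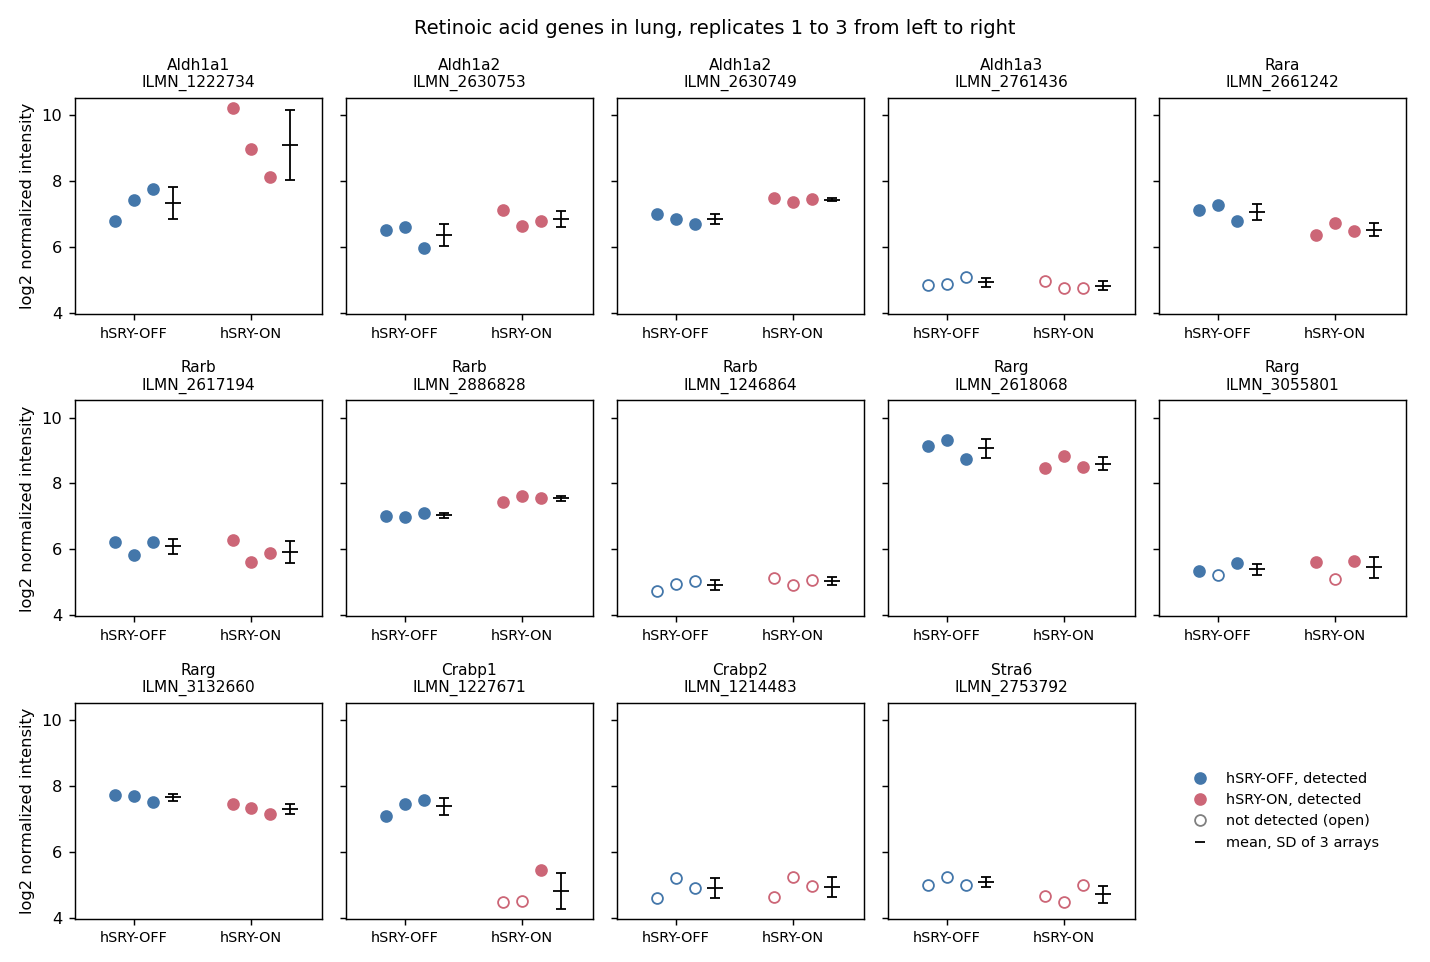
Log2 normalized intensity of the 14 probes of the 9 retinoic acid genes (y axis) on each hSRY-OFF and hSRY-ON array (x axis, replicates from left to right). Filled circles are detected, open circles not detected, and bars give mean and SD of 3 arrays. Aldh1a1, 1 probe of Aldh1a2 and 1 of Rarb lie higher in hSRY-ON, and Crabp1 falls from detected on 3 hSRY-OFF arrays to detected on 1 hSRY-ON array.

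The promoters of 3 of these genes are shown because their transcripts differed between the groups and the reference gives each a single window. Aldh1a1, which also differed, has 2 windows and is not shown. Each stretch holds the 250 bases before the annotated start, written along the gene's own strand, from RefSeq (GRCm38.p6). They are chr14:16575477-16575726 on the minus strand for Rarb, chr9:54764498-54764747 on the plus strand for Crabp1 and chr9:71215539-71215788 on the plus strand for Aldh1a2. Capitals mark 2 motifs, a direct repeat of retinoic acid receptor half-sites 5 bases apart (DR5, searched as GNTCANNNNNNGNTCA) and the SRY core AACAAT, here read from the opposite strand.
Rarb: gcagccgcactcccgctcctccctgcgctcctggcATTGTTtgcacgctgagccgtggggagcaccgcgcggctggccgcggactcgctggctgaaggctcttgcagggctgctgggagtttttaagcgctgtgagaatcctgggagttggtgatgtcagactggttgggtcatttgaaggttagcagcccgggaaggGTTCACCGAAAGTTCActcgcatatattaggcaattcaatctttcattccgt
Crabp1: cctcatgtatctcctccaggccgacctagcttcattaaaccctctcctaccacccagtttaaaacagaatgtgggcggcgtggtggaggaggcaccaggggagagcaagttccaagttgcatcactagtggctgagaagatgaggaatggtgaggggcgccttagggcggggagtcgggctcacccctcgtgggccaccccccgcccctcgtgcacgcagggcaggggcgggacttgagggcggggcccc
Aldh1a2: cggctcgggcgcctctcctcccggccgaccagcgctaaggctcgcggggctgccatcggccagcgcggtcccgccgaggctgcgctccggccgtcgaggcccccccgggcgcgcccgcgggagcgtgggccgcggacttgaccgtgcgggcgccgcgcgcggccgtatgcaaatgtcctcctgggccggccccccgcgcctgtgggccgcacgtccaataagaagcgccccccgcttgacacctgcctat

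RefSeq windows of 300 bases, 250 before the start and 50 after, were found for 7 of the 9 genes (not Aldh1a3 or Crabp2), 15 windows in all, and were searched on both strands. The DR5 stood in 1 of them, that of Rarb, as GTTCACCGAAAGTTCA from base -52 to -37 before the start. This letter pattern was present in 0.861% of the 32851 windows of the table. The SRY core was present in the Rarb window and in 1 of the 4 windows of Rara, and in 10.7% of all windows. The shorter-spaced repeat DR2 (GNTCANNNGNTCA) was in none of the 15 and in 1.12% of all windows. The 2 patterns do not overlap in the Rarb window. A match describes the letters and no binding was measured, and a window without one says nothing of factors that bind elsewhere.

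Retinoic acid synthesis was represented by 2 genes with detectable transcripts. Of their 3 tested probes 2 passed (66.7%, against 26.9% over the array), both with higher values in hSRY-ON. These were the only probe of Aldh1a1 and 1 of 2 for Aldh1a2, which catalyse the same last step. Both calls were lost when some single arrays were left out, as given below.

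Aldh1a1, a cytosolic retinaldehyde dehydrogenase that also clears other aldehydes, gave log2 normalized intensities of 6.79, 7.42 and 7.77 on the hSRY-OFF arrays and of 10.22, 8.98 and 8.11 on the hSRY-ON arrays. The lowest hSRY-ON value lay above the highest hSRY-OFF value by a small margin, and the hSRY-ON arrays were widely spread. The means were 7.33 ± 0.49 and 9.11 ± 1.06 (SD, n = 3 arrays each). The log2 change was 1.78 (SE 0.52, 3.43-fold, adjusted p = 0.0426, limma). Leaving out hSRY-OFF replicate 1, 2 or 3, or hSRY-ON replicate 2, raised the adjusted p to between 0.0719 and 0.137, with changes of 1.52 to 1.995. Aldh1a7, a close paralog from the same family, had no such separation, with 7.92, 7.82 and 8.30 in hSRY-OFF and 9.76, 8.29 and 8.25 in hSRY-ON (log2 change 0.75, SE 0.40, adjusted p = 0.206). Its value stood out on hSRY-ON replicate 1, the array with the highest Aldh1a1. How far the probes of these paralogs bind each other's transcripts was not tested.

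Aldh1a2, the enzyme that makes most retinoic acid in the embryo, was read by 2 probes. Probe ILMN_2630749 gave log2 values of 7.003, 6.86 and 6.69 in hSRY-OFF and of 7.48, 7.37 and 7.45 in hSRY-ON. The hSRY-ON arrays lay close together and above every hSRY-OFF array, with means of 7.43 ± 0.05 and 6.85 ± 0.16 (SD, n = 3 each). The log2 change was 0.58 (SE 0.13, 1.498-fold, adjusted p = 0.0161, limma). Without hSRY-OFF replicate 2 or 3 its adjusted p was 0.0649 or 0.0604. Probe ILMN_2630753 gave 6.51, 6.61 and 5.97 in hSRY-OFF and 7.12, 6.63 and 6.79 in hSRY-ON, again without overlap. Its log2 change was 0.48 (SE 0.21) and did not pass the test (adjusted p = 0.132).

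Aldh1a3, the third of these enzymes, had log2 values of 4.75 to 5.07 over the 6 arrays, all at detection p-values of 0.127 or more, so its level was within background in both groups.

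**Figure D2:**
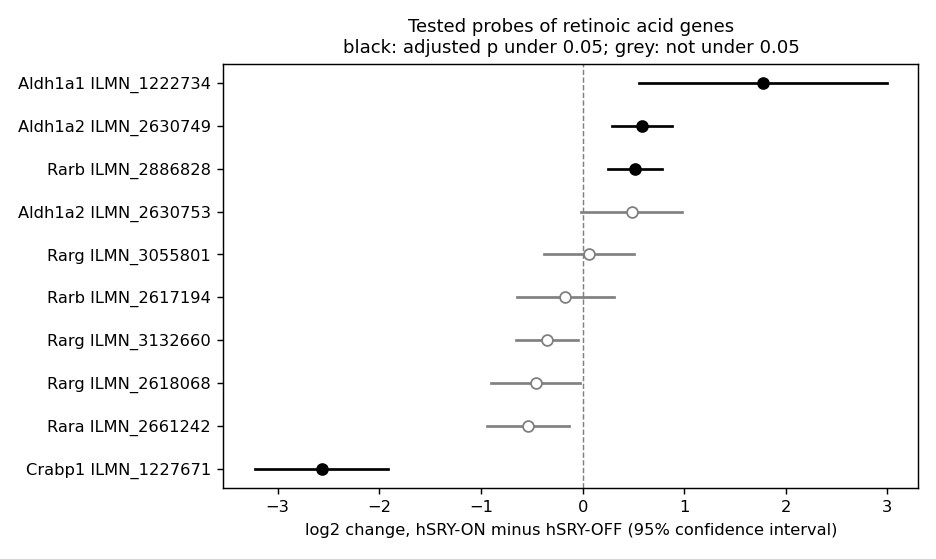
Log2 change between hSRY-ON and hSRY-OFF (x axis) for the 10 tested probes (y axis), as points with 95% confidence intervals. Black points passed an adjusted p of 0.05, which are 3 to the right of 0 (Aldh1a1, Aldh1a2, Rarb) and 1 to the left (Crabp1), while the receptor probes in grey lie between -0.54 and 0.06.

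Of the 6 tested probes of the retinoic acid receptors 1 passed (16.7%, against 26.9% over the array). This was a probe of Rarb, which rose, and the receptors were not tested against each other. The second tested probe of Rarb gave a change of -0.17, and the values of Rara and of 2 of 3 Rarg probes were lower in hSRY-ON without passing the test.

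Rarb, a receptor gene that is itself a classic target of retinoic acid, gave on probe ILMN_2886828 log2 values of 7.01, 6.97 and 7.11 in hSRY-OFF and of 7.45, 7.62 and 7.57 in hSRY-ON. Both groups were tight and did not overlap (7.03 ± 0.07 against 7.55 ± 0.09, SD, n = 3 each). The log2 change was 0.51 (SE 0.11, 1.43-fold, adjusted p = 0.0176, limma). It was 0.42 with an adjusted p of 0.0617 under median scaling, and the adjusted p was 0.0762 or 0.0782 without hSRY-OFF replicate 1 or 2. The promoter of this gene is the one with the DR5 shown above. Its second probe, ILMN_2617194, gave 6.22, 5.82 and 6.24 in hSRY-OFF and 6.27, 5.61 and 5.89 in hSRY-ON, which overlapped. There the log2 change was -0.17 (SE 0.20, adjusted p = 0.570), with a 95% interval of -0.65 to 0.31, against 0.25 to 0.78 for the probe that rose. Probe ILMN_1246864 was detected on none of the arrays. Which Rarb isoforms each probe reads is not given in the sources used here, and the difference between the probes was not tested.

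Rara, the most widely expressed of the receptors, had log2 values of 7.11, 7.28 and 6.79 in hSRY-OFF and of 6.37, 6.74 and 6.47 in hSRY-ON. The groups were adjacent without overlap. The log2 change of -0.54 (SE 0.17, 1.45-fold) had an adjusted p of 0.0552 (limma). It passed the threshold under median scaling (adjusted p = 0.0337), with a stricter detection filter (0.0426) and without hSRY-OFF replicate 3 (0.0489).

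Rarg was read by 3 probes. ILMN_2618068 had log2 values of 9.13, 9.33 and 8.75 in hSRY-OFF and of 8.46, 8.84 and 8.52 in hSRY-ON, so that 1 hSRY-ON array reached into the hSRY-OFF range (log2 change -0.46, SE 0.19, adjusted p = 0.106). ILMN_3132660 had 7.73, 7.70 and 7.53 in hSRY-OFF and 7.44, 7.32 and 7.15 in hSRY-ON, with no overlap (log2 change -0.35, SE 0.13, adjusted p = 0.0871). This probe passed only under median scaling (adjusted p = 0.0497) of the 16 other settings tried. The third, ILMN_3055801, was detected on 2 arrays of each group, and its change of 0.06 (SE 0.19, adjusted p = 0.823) turned to -0.037 at the lowest when single arrays were left out.

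Among the cytoplasmic binding proteins and the uptake receptor, Crabp1 was the 1 gene that could be tested. Crabp1, which holds retinoic acid in the cytoplasm and hands it to degrading enzymes, fell by more than any other probe of the set. Its log2 values were 7.10, 7.44 and 7.59 in hSRY-OFF and 4.48, 4.52 and 5.43 in hSRY-ON. All 3 hSRY-OFF arrays detected it, against hSRY-ON replicate 3 alone, where 0.0326 of the negative controls were brighter, while on replicates 1 and 2 these shares were 0.934 and 0.846. The probe thus met the detection filter through the hSRY-OFF arrays, the group where it was high. The groups lay far apart, at 7.38 ± 0.25 and 4.81 ± 0.54 (SD, n = 3 each). The log2 change was -2.57 (SE 0.28, 5.93-fold, adjusted p = 0.00188, limma), and the probe ranked 237 of 13841 by p. Since 2 of the hSRY-ON values lie in background, the size of the fall depends on how background is treated. It was -1.95 with every value raised to at least the lowest detected signal of its array, -1.68 with a larger offset and -0.99 without background correction, and it passed the test in each (adjusted p = 0.000504, 0.000588 and 0.00122).

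Crabp2, which carries retinoic acid to the nucleus, had log2 values of 4.59 to 5.22 in hSRY-OFF and 4.64 to 5.23 in hSRY-ON and was detected nowhere. Stra6, the membrane receptor for retinol-binding protein, had 4.98 to 5.25 and 4.48 to 4.998 and was also detected nowhere. No change of either can be read from these arrays.

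**Figure D3:**
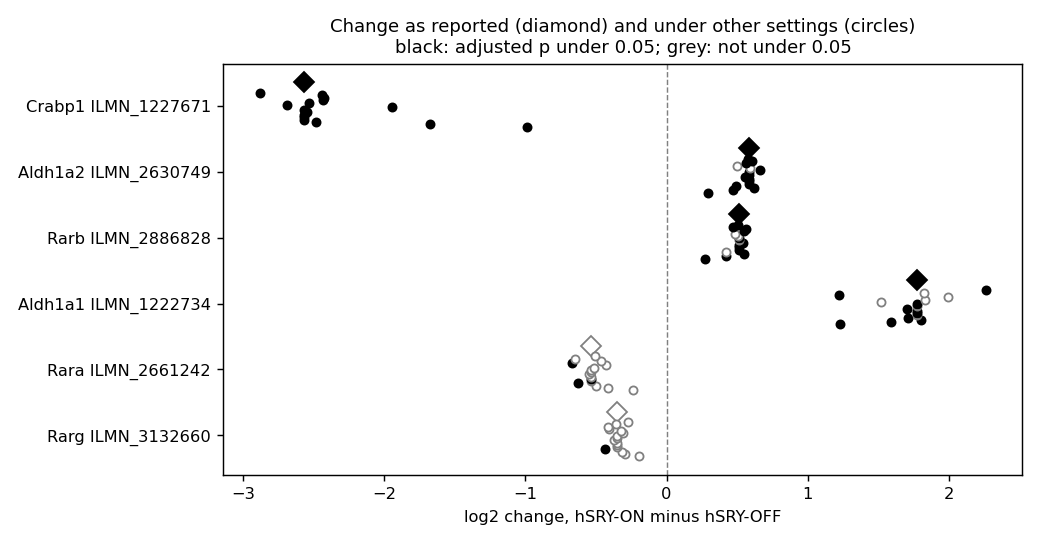
Log2 change between hSRY-ON and hSRY-OFF (x axis) for the 6 probes with the smallest p (y axis), as reported (diamonds) and under other processing or with 1 array left out (circles), black where the adjusted p was under 0.05. Crabp1 stays black between -2.88 and -0.99, Aldh1a1 ranges from 1.22 to 2.26 with 6 grey circles, and no circle of any of the 6 crosses 0.

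Several marker groups of other cell types moved between the groups. Over the array 13.6% of tested probes passed with higher and 13.3% with lower values in hSRY-ON, and the marker counts stand beside these shares. The order of the 3 hSRY-ON arrays in Aldh1a1 (1, 2, 3 from the highest) or Crabp1 (3, 2, 1) recurred in some lists only. Of 7 listed mesothelial markers 4 were tested and all 4 rose (Upk3b, Upk1b, Msln and Krt19), while Gpm6a and Lrrn4 were detected on none of the arrays and Wt1 has no probe here. Their summed normalized intensity was 3999 to 4264 in hSRY-OFF and 12180, 8894 and 8310 on hSRY-ON replicates 1, 2 and 3, the order of Aldh1a1. Of 4 airway club cell markers, all detected, 2 rose by their brightest probe (Scgb3a1 and Cyp2f2), and the sum was 52060 to 54142 in hSRY-OFF and 77453, 73378 and 63643 in hSRY-ON, again in that order.

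Of 5 tested proliferation genes all 5 fell (Top2a, Ccnb1, Cdk1, Mcm3 and Mcm6), with a sum of 5661 to 7048 in hSRY-OFF and 1809, 1679 and 3623 in hSRY-ON, highest on replicate 3 as Crabp1 was. Of 7 thymocyte markers 3 were tested and 2 fell (Cd3e and Cd3g), with a sum of 870 to 979 in hSRY-OFF and 271, 342 and 650 in hSRY-ON, the order of Crabp1, while Cd4, Cd8a, Rag1 and Dntt were detected on none of the arrays. Of 4 tested liver genes 3 rose (Ahsg, Apoa1 and Trf), while Alb, Fgb and Cps1 were detected on none of the arrays. The tested probes of Ahsg and Apoa1 were detected on all 3 hSRY-ON arrays and on no hSRY-OFF array. They passed the filter through hSRY-ON alone. The liver sum was 5668 to 6120 in hSRY-OFF and 7660, 8115 and 10912 in hSRY-ON, also in the order of Crabp1. Most of this sum is Trf, by far the brightest of the list (log2 12.79, 12.92 and 13.29 in hSRY-ON). The order of Aldh1a1 recurred in the lung list (114980, 112223 and 104514, with 2 of 7 higher), the cardiac muscle list (8664, 7633 and 3925, with 2 of 7 higher and 1 lower) and the erythroid list (66299, 60894 and 58700). The lipofibroblast, macrophage and endothelial sums were highest on hSRY-ON replicate 2. The ciliated and myofibroblast sums, as the proliferation sum, ran 3, 1, 2 from the highest. These lists followed neither order. With 3 arrays there are few orders, so a shared order singles out no list. Macrophage markers (5 of 5 tested) and ciliated cell markers (5 of 5) rose, as did 2 of 5 tested lipofibroblast markers. Of the endothelial markers 3 of 5 tested fell, and of the myofibroblast markers 3 of 6. Siglecf, Kdr and Fabp4 of these lists were detected on none of the arrays. Without passing, Eln (0.33) and Pdgfra (0.19) of the myofibroblast list changed upward. The 3 Fgf10 probes of the lipofibroblast list changed downward (-0.34, -0.81 and -0.31), also without passing. The part of these cell types in the changes of the retinoic acid genes was not tested.

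**Figure D4:**
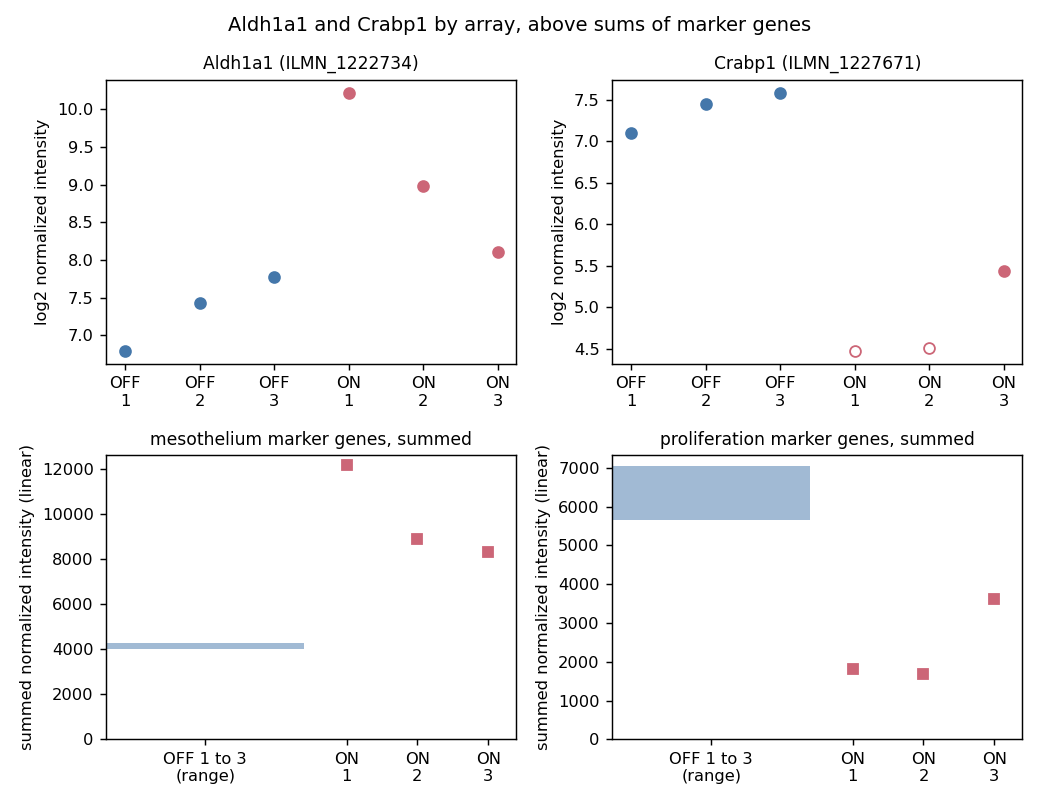
Upper panels give the log2 normalized intensity of Aldh1a1 and Crabp1 on each array (open circles not detected). Lower panels give the summed linear normalized intensity of mesothelial and proliferation marker genes, with the hSRY-OFF range as a band and each hSRY-ON array as a square. In both columns the hSRY-ON replicate that is highest above is also highest below. Replicates 1 and 2 stand in opposite order for Crabp1 and proliferation. Other marker lists, not shown, were highest on the same replicates.

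The arrays over which Aldh1a2 and Crabp1 varied were shared by many other probes. Over the 6 arrays the 3 probes most like Crabp1 (ILMN_1227671) were for Svep1, Rhobtb3 and As3mt (Pearson r = 0.997 each), and 641 tested probes had an r above 0.95. The 3 most like Aldh1a2 (ILMN_2630749) were for Osr1 (0.996), Tm2d3 (0.992) and Dmkn (0.991), and 185 had an r above 0.95. All 6 named probes passed the test in the direction of the gene they resemble, and the difference between the groups makes up much of each r.

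A wider list of 80 retinoid genes was then read in the same fit. It holds the genes before and after retinoic acid synthesis, its degrading enzymes, partner receptors, transcripts known to respond to retinoic acid and lung genes tied to it in septation. Of these, 75 were on the array and 50, with 66 probes, were tested. Of the 66 probes 19 passed (28.8%), 4 higher and 15 lower, with a median change of -0.16. Without hSRY-OFF replicate 1 or 2, 9 or 10 passed, and without background correction 29. The share that passed is close to the 26.9% of the whole array.

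**Figure D5:**
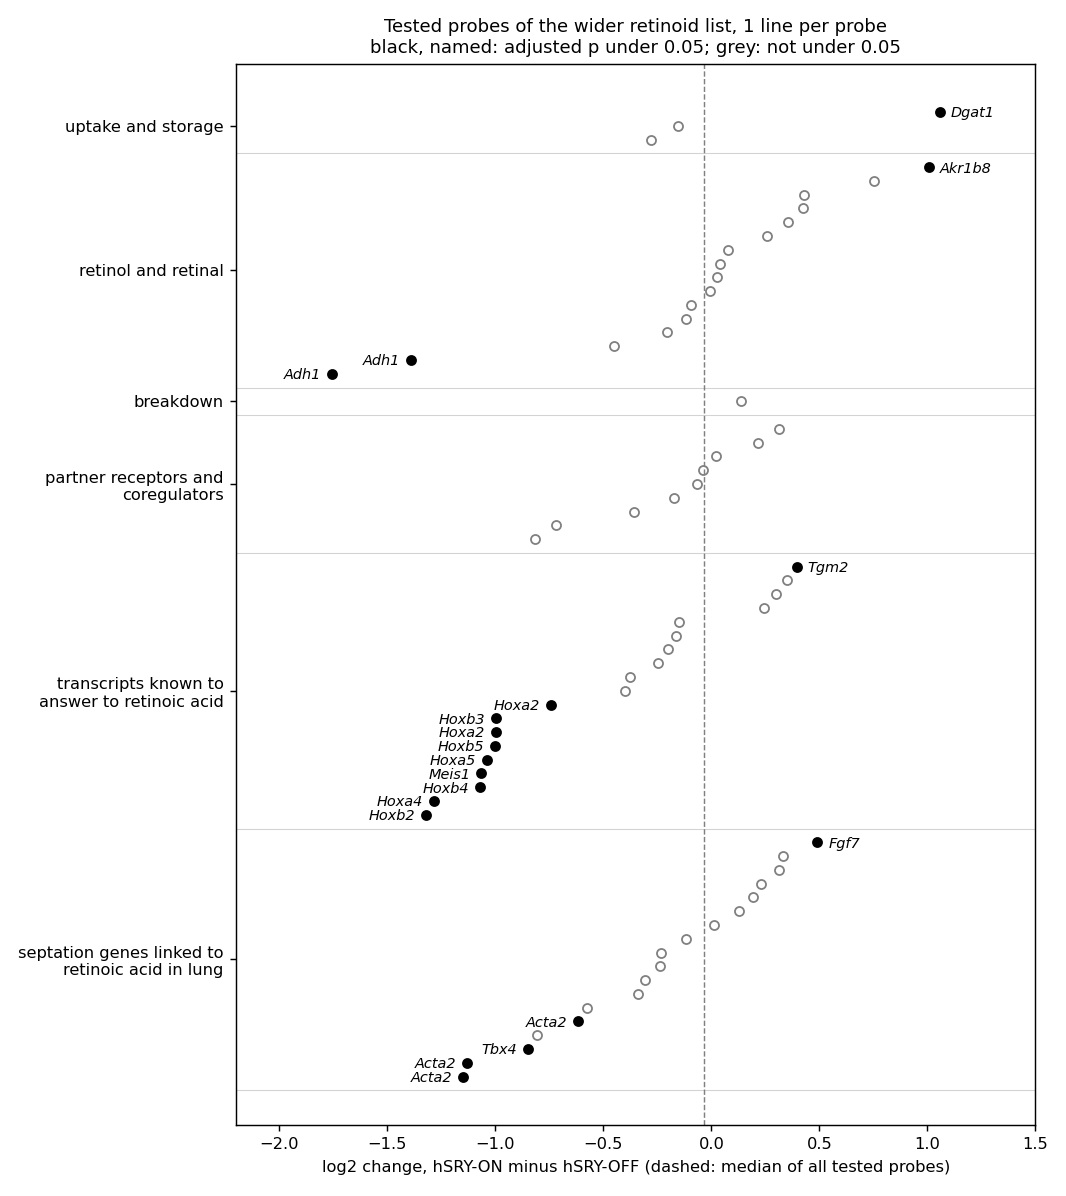
Log2 change between hSRY-ON and hSRY-OFF (x axis) of the 66 tested probes of the wider retinoid list, 1 line per probe and grouped by role (y axis), with called probes in black and named. The dashed line is the median of all tested probes, -0.03. Of the called probes 15 lie to the left, 9 of them in the group of transcripts known to answer to retinoic acid, and 4 to the right. Hoxa4 was below detection on all hSRY-ON arrays, so that its point is a fitted value. With its hSRY-ON values raised to the lowest detected signal of each array, the group means differed 2.09-fold, a value without an error.

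Of the genes that handle retinol and retinal, 3 of 16 probes passed (18.8%, against 26.9% over the array), 1 higher and 2 lower. Adh1, an alcohol dehydrogenase that oxidises retinol, fell on both of its probes. ILMN_1258501 went from 13.56, 13.66 and 13.57 to 11.80, 11.38 and 12.35 on the log2 scale (change -1.75, SE 0.24, 3.37-fold, adjusted p = 0.00360). ILMN_2850077 went from 14.59, 14.55 and 14.51 to 12.99, 12.83 and 13.65 (change -1.39, SE 0.22, adjusted p = 0.00573). On both, every hSRY-ON array lay below every hSRY-OFF array and replicate 3 was the highest of the hSRY-ON arrays. Akr1b8, an aldo-keto reductase that turns retinal back to retinol among other substrates, rose from 7.52, 7.39 and 7.68 to 8.75, 8.47 and 8.40 (change 1.01, SE 0.14, adjusted p = 0.00435). Rdh10, the retinol dehydrogenase needed in the embryo, had a change of -0.12 (SE 0.29, adjusted p = 0.793), and Dhrs3, which reduces retinal, was detected on 1 array and not tested.

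Of the uptake and storage genes 1 of 3 tested probes passed (33.3%, against 26.9% over the array). Dgat1, an acyltransferase of fat and retinyl ester storage, rose from 7.61, 7.76 and 7.93 to 8.35, 9.59 and 8.54 (change 1.06, SE 0.32, adjusted p = 0.0460). It lost this call in 7 of the 16 other settings tried. Among these were leaving out any 1 of the 3 hSRY-OFF arrays or hSRY-ON replicate 3 (adjusted p = 0.0518 to 0.140), and median scaling (0.0539). Rbp4, the retinol carrier of blood, and Lrat, the main retinol esterifying enzyme, were detected on none of the arrays. Of the enzymes that break down retinoic acid, Cyp26b1 changed by 0.14 (SE 0.15, adjusted p = 0.531), Cyp26a1 was detected on none of the arrays and Cyp26c1 was not on this array.

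None of 9 tested probes of partner receptors and coregulators passed the adjusted threshold (limma), and 2 had an unadjusted p under 0.05. Both of these, named after their values were seen, were for the orphan receptor Nr2f2 (changes -0.82 and -0.72, adjusted p = 0.0650 and 0.0662). Rxra had a change of 0.32 (SE 0.18, adjusted p = 0.240), and the 2 probes of Rxrb had 0.21 and -0.04 (adjusted p = 0.364 and 0.817), the second turning to 0.0037 and 0.022 with cyclic loess and median scaling. Rxrg was detected on 1 hSRY-OFF array and not tested.

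Of the transcripts known to respond to retinoic acid, 10 of 19 tested probes passed (52.6%, against 26.9% over the array), 9 lower and 1 higher. The list was chosen with earlier results of these data known, so the share describes it and tests nothing. All 9 lower probes were for homeobox genes, which set position along the body axis and several of which are retinoic acid targets in the embryo. The tested probes of Rarres2, Bhlhe40, Rai1 and Rai14, which are not homeobox genes, did not pass. Their log2 changes were 0.24, -0.20, 0.30 and 0.35. Some homeobox probes did not pass either, those of Hoxa3, Meis2 and Cdx1 among them. Retinoic acid itself was not measured. The lower probe for Hoxa4 was detected on all 3 hSRY-OFF arrays and on no hSRY-ON array. It passed the filter through hSRY-OFF alone. The 5 genes with the smallest p were Hoxb2 (log2 change -1.32, SE 0.11, adjusted p = 0.000969), Hoxb5 (-1.003, SE 0.12), Hoxa5 (-1.04, SE 0.13), Hoxa2 (-0.996, SE 0.14, on probe ILMN_2874270) and Meis1 (-1.06, SE 0.16). Hoxa5, needed for lung development, had 12.55, 12.75 and 12.55 in hSRY-OFF and 11.72, 11.55 and 11.46 in hSRY-ON. Of the 19 probes 13 did not overlap between the groups, against 46.6% over the array, and the 5 genes named, chosen by p, are among them. The 1 probe that rose, chosen after its values were seen, was Tgm2, a transglutaminase induced by retinoic acid in many cells, from 12.33, 12.21 and 12.37 to 12.70, 12.69 and 12.71 (change 0.40, SE 0.11, adjusted p = 0.0365).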

How the data were processed

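Total RNA of 3 hSRY-OFF and 3 hSRY-ON lungs was amplified, biotin-labelled and hybridised to Illumina MouseRef BeadChips by the authors. Groups and replicates follow the sample labels. The table the authors deposited gives, per probe and array, an unnormalized intensity and a detection p-value. The software that summarised the beads is not given in the sources used here. The study used TCC, which models counts, so limma 3.58.1 (R 4.3.3) was applied to the deposited intensities instead. Background correction was by normexp, fitted through the detection p-values with 16 as the offset, and values were quantile-normalized across arrays before taking log2. The offset compresses changes near background, and quantile normalization removes shifts shared by all probes of an array. The median deposited intensity was 177.1 to 204.0 per array. No pair of arrays held identical values.

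Probes with detection p under 0.05 on at least 3 of 6 arrays were fitted by lmFit and eBayes without covariates, with Benjamini-Hochberg adjustment over all 13841 and a threshold of 0.05. The script was tested on simulated data. The p-values set the difference between groups against the spread between 3 mice per group, with the variance of each probe moderated by that of all tested probes. The 9 genes, the wider retinoid list and the marker lists were chosen with earlier results of these data known. Named from the wider list were, per role, up to 5 called genes by smallest p, and Rxra, Rxrb, Rxrg, Rbp4, Lrat, Rdh10, Dhrs3, Cyp26a1, Cyp26b1 and Cyp26c1. A gene chosen by this rule is left out of the text. For the 2 called members of smallest p the 3 most correlated probes were named. Older symbols were matched through RefSeq synonyms (Cdk1 is Cdc2a on the array). Alternatives were other background corrections, normalizations, filters, variance models, array weights, a replicate block, each array left out and, chosen after seeing the data, values raised to the lowest detected signal.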

Additional observations from a re-analysis of the deposited data

How the results depend on the processing

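Of the 4 called retinoic acid genes, Crabp1 passed in all 15 alternatives in which it could be tested (adjusted p 0.000407 to 0.0153). It could not be tested when detection was required on all 6 arrays. Aldh1a1 kept its change of 1.78 but lost its call with no detection filter (adjusted p = 0.0710) and with a replicate block (0.0872), and ranged from 1.22 to 2.26 with 1 array left out. Rarb (ILMN_2886828) lost its call under median scaling (0.42) and with the replicate block (0.51, adjusted p = 0.0533), and ranged from 0.47 to 0.56 with 1 array left out. Aldh1a2 (ILMN_2630749) ranged from 0.50 to 0.66. Rara passed under median scaling (-0.62) and the strict filter (-0.54) and ranged from -0.67 to -0.43, and Rarg (ILMN_3132660) passed under median scaling (-0.44). Uncalled changes near 0 turned sign for Rarg (ILMN_3055801, -0.037 to 0.25), Cyp26b1 (-0.0087 to 0.24) and Rdh10 (-0.35 to 0.25) with 1 array left out, and for Rxrb (ILMN_2593038) with cyclic loess (0.0037), median scaling (0.022) or 1 array left out (-0.091 to 0.0038). Member calls numbered 1 to 4 with 1 array left out, calls in the wider list 9 to 21 and calls over all probes 1504 to 4384 (1504, 1621 and 2103 when hSRY-OFF replicate 1, 2 or 3 was out, 2393 when hSRY-ON replicate 2 was). Calls in the wider list rose from 19 to 29 without background correction. Without that correction changes were also smaller, 0.29 for Aldh1a2 and 0.27 for Rarb. The labels do not say whether the replicate numbers pair the mice. Deviations of same-numbered arrays correlated at -0.11, 0.10 and -0.09, and those of unlike-numbered arrays at -0.09 to 0.16. With 3 arrays per group these values cannot decide whether the mice were paired. With the number as a replicate block 2 member probes, 13 of the wider list and 2655 overall were called. The cause of these differences was not tested. Dim probes limit the set, since 4 of its 14 were never detected.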

Other observations

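Among lung genes tied to retinoic acid during septation, 5 of 18 tested probes passed (27.8%, close to the 26.9% of the whole array), 4 lower and 1 higher. Acta2, the smooth muscle actin of septal myofibroblasts, fell on 3 of 4 probes, with log2 changes of -0.62, -1.15 and -1.13 (SE 0.18, 0.26 and 0.24, adjusted p = 0.0412, 0.0183 and 0.0151, limma), and the remaining probe had -0.58 (adjusted p = 0.0775). On each Acta2 probe hSRY-ON replicate 2 was the lowest array. Tbx4, a T-box factor of lung mesenchyme, fell from 10.49, 10.65 and 10.23 to 9.25, 9.48 and 10.10 (change -0.85, SE 0.24, adjusted p = 0.0373). Fgf7, a growth factor made by mesenchyme, rose from 8.82, 9.03 and 8.99 to 9.43, 9.45 and 9.43 (change 0.49, SE 0.11, adjusted p = 0.0210). The myofibroblast marker list, which also holds Acta2, was at 50736 to 53612 summed normalized intensity in hSRY-OFF and 43357 to 48011 in hSRY-ON. Without hSRY-OFF replicate 1 or 2 none of the called probes passed (adjusted p = 0.0546 to 0.129). Without hSRY-OFF replicate 3 or hSRY-ON replicate 2, Tbx4 (0.0618 and 0.107) and Fgf7 (0.0609 and 0.0506) did not pass, nor Tbx4 without hSRY-ON replicate 1 (0.0638), nor Acta2 probe ILMN_2693895 without hSRY-OFF replicate 3 (0.0968). That probe also did not pass under median scaling (change -0.46, adjusted p = 0.0785), and both it (0.0565) and Tbx4 (0.0561) did not pass with no detection filter. With the replicate block the adjusted p was 0.0725 for that probe, 0.0767 for Tbx4 and 0.0584 for Fgf7.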
